A study of Rattus norvegicus with 18 samples.

Results

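Arc was measured in the neocortex and the hippocampal formation of rats that had slept undisturbed, had been kept from paradoxical sleep, or had been allowed to recover it. Paradoxical sleep is the sleep state with rapid eye movements, an active electroencephalogram and loss of muscle tone. Of 31099 probe sets in the deposited array table, 1 (1387068_at, designed on the RefSeq transcript NM_019361) is annotated with the symbol Arc alone, and it passed the filter on low signal that kept 18625. In the rat GRCr8 assembly RefSeq places the gene on chromosome 7 from 108444959 to 108448413. Arc was selected on its neocortical response to deprivation in an earlier analysis of these arrays, so its neocortical levels are described here with no test. Its hippocampal differences between states were not used for that choice and were tested, with a spread estimated from the pools of both structures.

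All rats were male Sprague-Dawley rats from Charles River, housed singly and implanted with electrodes for sleep recording, without a transgene or drug named in the labels, which give a body weight range in place of an age. The control rats were left in their home cages. The deprived rats were kept from paradoxical sleep for 78 h by the flowerpot method, in which a rat rests on a small platform above water and is woken when muscle tone drops. Recovery rats were deprived for 72 h and then left to sleep for 6 h by the sample labels, although the treatment text can be read as recovery after the full 78 h. Tissue of every group was taken at 1 common hour of the light phase. A state comprised 12 rats, divided into 2 sets of 6. RNA of the right neocortex and right hippocampal formation was pooled by set, which gave 12 pools on 18 arrays and n = 2 pools in each of 6 groups, so the spread between single animals is not seen. Each neocortical pool has a hippocampal partner from the same rats.

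Arc is an immediate early gene, switched on in excitatory neurons within minutes of strong synaptic input and calcium entry without the need for new protein. Its mRNA travels into dendrites and is translated near active synapses, and the protein works with endophilin and dynamin to remove AMPA-type glutamate receptors from the synaptic membrane. Arc is used widely as a marker of recently active neurons and is needed for the consolidation of memory. Because the mRNA is short-lived, its level reflects the recent past of a tissue rather than the whole of a treatment.

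In the neocortex Arc was higher in deprived rats than in home-cage rats, and recovery rats lay at the level of controls. The control pools had Arc signals of 80.5 in set 1 and 103 in set 2, or 6.33 and 6.69 on the log2 scale. The deprived pools had signals of 151 and 200, or 7.24 and 7.65 on the log2 scale. In the recovery pools the signals were 78.5 and 110, or 6.29 and 6.78 on the log2 scale. Both deprived pools were above all 4 other neocortical pools, while the control and recovery pools interleaved. Within each of the 3 states set 2 was higher than set 1.

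The hippocampal formation showed another order, with the highest Arc signal in recovery rats. Control pools had signals of 113 and 97.2 in sets 1 and 2, or 6.82 and 6.60 on the log2 scale. Deprived pools had signals of 99.95 and 102, or 6.64 and 6.67 on the log2 scale. Recovery pools had signals of 145 and 148, or 7.18 and 7.21 on the log2 scale. Both recovery pools were above all 4 other hippocampal pools, and the control and deprived pools overlapped. The arrays of 1 pool, made from independent poolings of set 1, differed by log2 gaps of 0.09 to 0.41, with the widest gap in deprived hippocampal formation.

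**Figure D1:**
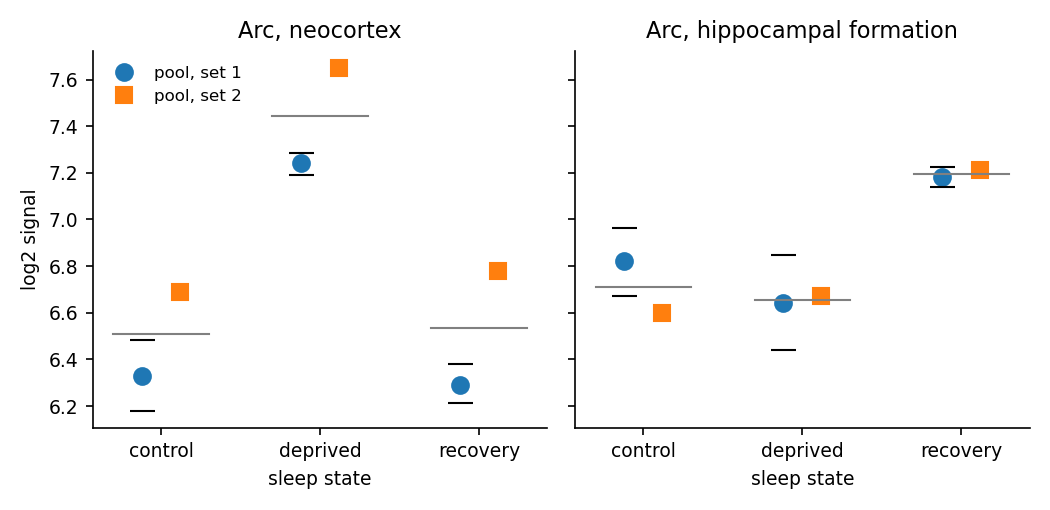
Arc log2 signal (vertical axis) by sleep state in the neocortex (left) and hippocampal formation (right). Circles and squares are the pools of set 1 and set 2, black dashes the 2 arrays of each set 1 pool, and grey lines the mean of the 2 pools; the deprived pools at 7.24 and 7.65 are highest in the neocortex and the recovery pools at 7.18 and 7.21 are highest in the hippocampal formation.

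Ordered by mean log2 signal over both pools, the groups ran from control neocortex (6.51 ± 0.250, SD, n = 2 pools) through recovery neocortex (6.54 ± 0.341), deprived hippocampal formation (6.65 ± 0.0167) and control hippocampal formation (6.71 ± 0.153) to recovery hippocampal formation (7.20 ± 0.0210) and deprived neocortex (7.44 ± 0.289). The 4 lowest groups overlapped with their neighbours in this order. A gap of 0.48 separated recovery hippocampal formation from the group below it, and a gap of 0.25 separated it from deprived neocortex. Pools did not overlap at either step, but at the upper step the nearest lay at 7.21 and 7.24. Single arrays overlapped there, with a signal of 146.1 in deprived neocortex below 148.1 and 149.5 in recovery hippocampal formation. The mean log2 signal over all 12 pools was 6.84, above that of 74.1% of the probe sets on the array.

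Deprived minus control in the neocortex was 0.93 on the log2 scale for Arc (SE 0.199), a 1.91-fold higher signal. The difference was 0.91 within set 1 and 0.96 within set 2. Sorted by this difference, Arc stood 20th from the top of 18625 probe sets, whose median was 0.00872. Pools of the deprived group lay wholly above those of the control group for 13.1% of probe sets, so that such a separation alone is common with 2 pools per group. By limma with Benjamini-Hochberg adjustment 0% of probe sets were called at an adjusted p under 0.05 (0 of 18625, with 207 at an unadjusted p under 0.05). With the replicate number of the rats as a block 0.0107% were called (2 of 18625). Arc was put forward by this comparison, so no call of Arc is drawn from it.

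Recovery minus control in the neocortex was 0.03 for Arc (SE 0.199), with values of opposite sign in set 1 (-0.04) and set 2 (0.09). Recovery minus deprived was -0.91 (SE 0.199), a 1.87-fold lower signal after 6 h in which sleep was allowed, and it was -0.94 in set 1 and -0.87 in set 2. This comparison shares its deprived pools with the one on which Arc was chosen. Arc stood 17th from the bottom of all probe sets here, and for 12.5% of probe sets the recovery pools lay wholly below the deprived ones. Limma called 0% in both recovery comparisons (209 and 169 at an unadjusted p under 0.05, against control and against deprivation). With the block it called 0% against control and 0.00537% (1 of 18625) against deprivation, and no test of Arc is drawn from these pools.

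In the hippocampal formation deprivation left no detectable difference in Arc at this precision. Deprived minus control was -0.06 (SE 0.199, 95% interval -0.50 to 0.39, limma adjusted p = 1.0), with -0.18 in set 1 and 0.06 in set 2. Recovery minus control was 0.48 (SE 0.199, 95% interval 0.04 to 0.93), a 1.40-fold higher signal, with 0.36 in set 1 and 0.61 in set 2. Recovery minus deprived was 0.54 (SE 0.199, 95% interval 0.10 to 0.98), a 1.45-fold higher signal, with 0.54 in both sets. These comparisons share the control, deprived and recovery pools between them.

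Neither hippocampal recovery difference passed the test over all probe sets. Against control the unadjusted p was 0.0354 and the adjusted p = 1.0 by limma, and against deprivation they were 0.0219 and 1.0. With the replicate block the unadjusted p was 0.000522 against control and 0.000213 against deprivation, and the adjusted p = 0.304 and 0.309. The SE behind these p-values was estimated from all 12 pools, including the neocortical pools on which Arc was chosen. They are therefore not independent of that choice. This SE was 0.102 with the block and 0.199 without it, and 0.133 without the block when only the hippocampal pools were fitted. Limma called 0% of probe sets in each of the 3 hippocampal comparisons without the block (204, 282 and 301 at an unadjusted p under 0.05, for deprivation, recovery against control and recovery against deprivation) and 0% with it (1106, 1363 and 1334). Recovery pools lay wholly above control pools for 10.0% of probe sets and wholly above deprived pools for 11.8%. Arc stood 311th from the top against control and 156th against deprivation.

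**Figure D2:**
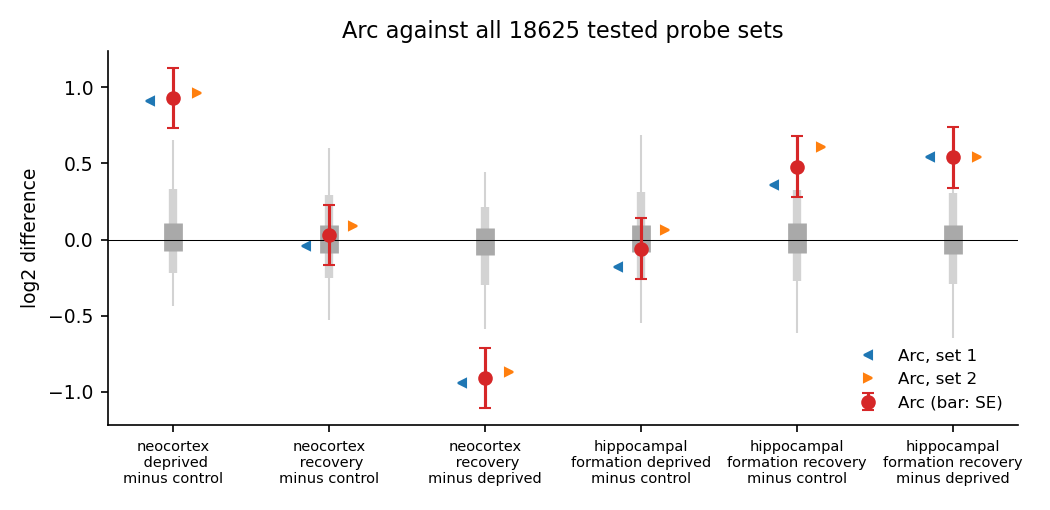
Log2 difference (vertical axis) for Arc in 6 comparisons of sleep states, as red points with the SE of limma, and within set 1 and set 2 as blue and orange triangles. Grey bars span the middle 50%, 90% and 99% of 18625 probe sets from thick to thin. Arc at 0.93 and -0.91 lies outside the 99% span in deprived minus control and recovery minus deprived of the neocortex. Because Arc was chosen on its neocortical response to deprivation, its place in these neocortical comparisons is described and is not a test. In both hippocampal recovery comparisons Arc lies outside the 90% span, at 0.48 and 0.54.

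The pools were also compared between structures of the same rats. Hippocampal formation minus neocortex for Arc was 0.49 and -0.08 in the control rats of sets 1 and 2. In deprived rats it was -0.59 and -0.98, and in recovery rats 0.89 and 0.43. Both deprived pools had more Arc in the neocortex and both recovery pools more in the hippocampal formation, while the control pools differed in sign. Averaged over the states the difference was 0.03 (SE 0.108, n = 6 pools of rats), given with no test because it includes the neocortical pools on which Arc was chosen.

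**Figure D3:**
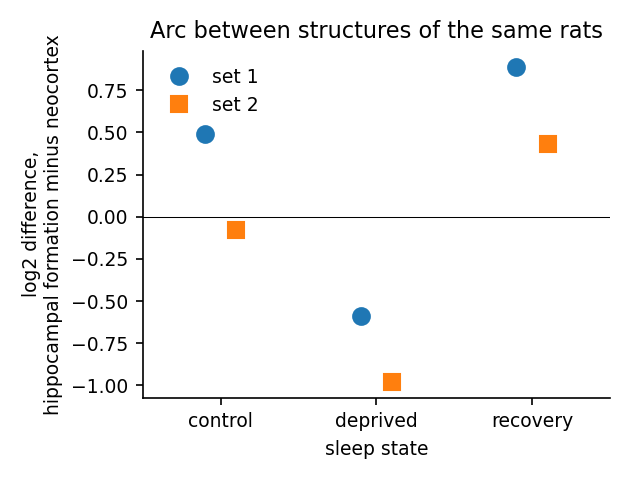
Arc log2 signal in the hippocampal formation minus that in the neocortex of the same pool of 6 rats (vertical axis), by sleep state, with set 1 as circles and set 2 as squares. The line at 0 marks equal signal; both deprived pools lie below it (-0.59 and -0.98) and both recovery pools above it (0.89 and 0.43).

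Neurons induce Arc together with other activity-regulated genes, beginning with transcription factors. Of 25 such factors listed, 18 were measured above the filter. In the deprived neocortex 16 of them exceeded control and 2 did not, beside 48.0% of all genes above control. The median log2 difference was 0.21 against -0.00706 over 10294 genes. In the recovery hippocampal formation 16 exceeded control and 2 did not, beside 47.6% of all genes above control. The median there was 0.29 against -0.00708 over all genes. That median was 0.42 within set 1 and 0.12 within set 2. The list had a median of 0.02 in the deprived hippocampal formation and of 0.11 in the recovery neocortex. Limma called 0 of the 18 in each of the 6 comparisons with and without the block. At an unadjusted p under 0.05 without the block there were 5 in the deprived neocortex, 0 in the deprived hippocampal formation and 5 in the recovery hippocampal formation against control, and with it 6, 2 and 7. Over all probe sets the shares at that level were 1.11%, 1.1% and 1.51% without the block and 5.74%, 5.94% and 7.32% with it in the same order.

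Fos, an AP-1 subunit and the classic marker of neuronal activation, was 0.95 higher on the log2 scale in the deprived than in the control neocortex, close to the 0.93 of Arc. In recovery neocortex Fos was still 0.48 above control, where Arc was at 0.03. In the hippocampal formation Fos was 0.33 above control after deprivation and 0.84 above it after recovery (SE 0.423). The recovery value was 1.44 in set 1 and 0.23 in set 2. Nr4a1, an orphan nuclear receptor induced by calcium signals, had log2 differences from control of 0.59 and 0.33 in deprived and recovery neocortex, and of -0.13 and 0.37 in the hippocampal formation. Egr1, a zinc finger factor linked to synaptic plasticity, had differences of 0.33 and 0.23, and of -0.13 and 0.37, in the same order. Egr2 stood at 0.78 and 0.72 in the neocortex and at -0.16 and 0.72 in the hippocampal formation. Its hippocampal recovery value was 1.32 in set 1 and 0.11 in set 2. Unlike for Arc, the recovery level of Egr2 in the neocortex was near its deprived level. This contrast between the genes was not tested. Junb, another AP-1 subunit, Egr4, Nr4a3 and Ier2 had deprived minus control differences in the neocortex of 0.13, 0.09, 0.25 and 0.58. Their recovery minus control differences in the hippocampal formation were 0.44, 0.32, 0.47 and 0.02. For Junb the latter was larger in set 2 (0.52) than in set 1 (0.35).

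**Figure D4:**
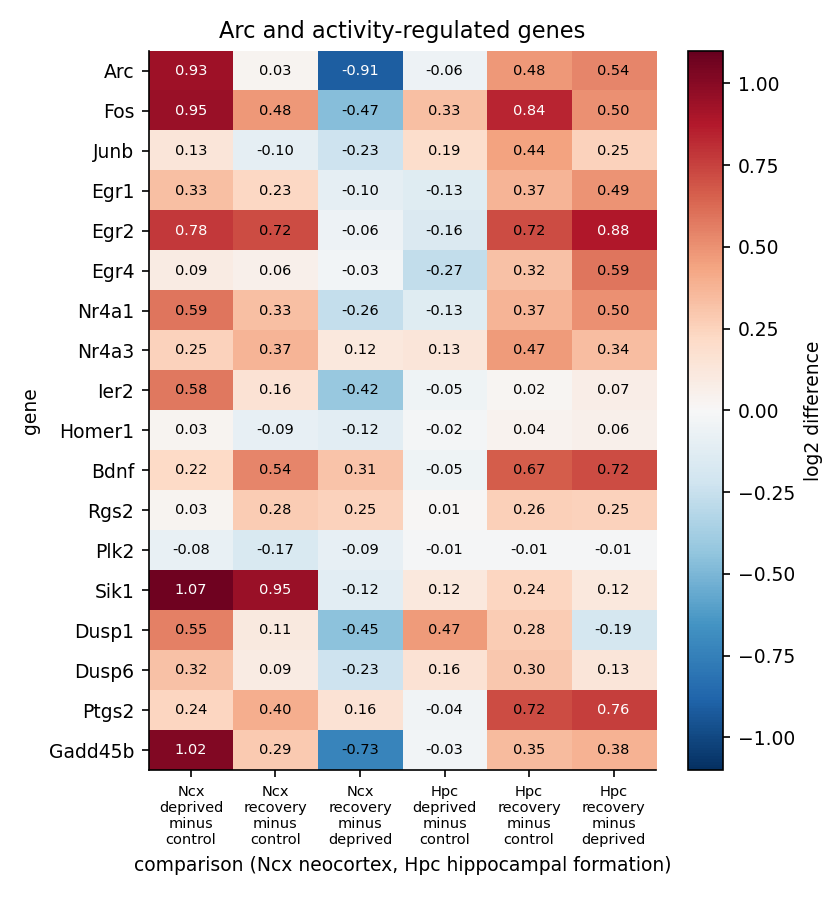
Log2 differences (colour and printed value) of Arc, in the top row, and of 17 activity-regulated genes below it in 6 comparisons of sleep states, with 1 probe set per gene. Arc and Gadd45b go from 0.93 and 1.02 (deprived minus control) to -0.91 and -0.73 (recovery minus deprived) in the neocortex, while Bdnf, Ptgs2 and Egr2 have their highest values in the recovery hippocampal formation.

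Activity-regulated genes that, like Arc, act at synapses or in signalling rather than on DNA were listed separately, and 21 of 33 were measured. In the deprived neocortex 19 were above control and 2 below (median 0.20), and in the recovery hippocampal formation 18 were above control and 3 below (median 0.26). Of all genes 48.0% and 47.6% were above control in these comparisons. In the recovery neocortex 18 were above control, beside 49.7% of all genes, with a median of 0.25, while 10 were above and 11 below the deprived level. Their median in the deprived hippocampal formation was 0.00. Limma called 0 of 21 in each comparison with and without the block, against 3 and 7 at an unadjusted p under 0.05 in the deprived neocortex and 5 and 9 in the recovery hippocampal formation against control, without and with the block, where all probe sets gave 1.11% and 5.74%, and 1.51% and 7.32%.

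Gadd45b, a stress and activity-induced regulator of DNA demethylation, was near Arc in the size of its neocortical differences, with 1.02 in deprived and 0.29 in recovery rats against control. Its recovery minus deprived difference was -0.73 in the neocortex and 0.38 in the hippocampal formation, beside -0.91 and 0.54 for Arc. Bdnf, a neurotrophin released by active neurons, had differences of 0.22 and 0.54 from control in deprived and recovery neocortex, and of -0.05 and 0.67 in the hippocampal formation. A dimmer Bdnf probe set, 1368678_at, gave 0.69 and 0.45, and 0.33 and 0.50. Ptgs2, the inducible cyclooxygenase of neurons, had 0.24 and 0.40, and -0.04 and 0.72, in the same order. Sik1, a salt-inducible kinase that restrains CREB coactivators, had 1.07 and 0.95 in the neocortex, where its control level (3.93 ± 1.03 on the log2 scale, SD, n = 2 pools) lay under the filter level of 4.3, and the difference from deprived pools was 0.50 in set 1 and 1.64 in set 2. Dusp1 and Dusp6, phosphatases that switch off MAP kinases, were 0.55 and 0.32 above control in deprived neocortex, and Rgs2 and Plk2 were at 0.03 and -0.08.

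Homer1, a postsynaptic scaffold with a short activity-induced form, depended on the probe set. The brightest of its 5 kept probe sets had a difference of 0.03 in the deprived neocortex and 0.04 in the recovery hippocampal formation against control. For 1370454_at these differences were 0.68 and 1.12, and for 1370997_at 0.57 and 1.31. Which isoform each probe set reads is not given in the sources used here. Fosb and Egr3 lay below the filter (mean log2 signals of 4.2 and 4.02), and Npas4, Btg2 and Nptx2 had no probe set under their symbol alone.

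The factors and kinases that act on the Arc gene had medians near 0 as a list, with probe sets of some members disagreeing. These include SRF, MEF2 and CREB, which bind its promoter and enhancer, and the MAP kinase cascade that activates them. Of 27 measured, 12 were above and 15 below control in the deprived neocortex (median -0.02), and 8 were above and 19 below in the recovery hippocampal formation (median -0.01). Limma called 0 of 27 in each comparison with and without the block, with 0 and 4 at an unadjusted p under 0.05 in the deprived neocortex and 1 and 2 in the recovery hippocampal formation, where all probe sets gave 5.74% and 7.32% with the block. Creb1 was 0.32 above control in deprived neocortex and 0.43 above it in deprived hippocampal formation. Srf had differences of -0.03 and 0.00 by its brighter probe set in these groups, but 0.25 and -0.23 by 1374829_at, whose mean log2 signal of 4.32 was at the filter. Mef2c had -0.10 in the deprived neocortex by its brighter probe set and -0.56 by 1373410_at, which is about as bright (mean log2 signals of 10.21 and 9.95). In the hippocampal formation that second probe set gave -0.69 after deprivation and -0.85 after recovery, where the first gave -0.13 and -0.36. Elk1 had 0.07 in the deprived neocortex, and Crtc1 had -0.04 by its brighter probe set and -0.39 by 1395469_at.

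Genes that carry and translate Arc mRNA were measured for 24 of 25 listed. In the deprived neocortex 10 were above and 14 below control (median -0.01), and in the recovery hippocampal formation 14 were above and 10 below (median 0.02). Fmr1, the fragile X protein that represses translation of dendritic mRNAs, had differences of 0.08 and -0.01 in these groups. Eif4a3, a core protein of the exon junction complex that marks Arc mRNA for decay after translation, had -0.05 and 0.02, and the elongation factor gene Eef2 had -0.04 and -0.12. Limma called 0 of 24 in each comparison with and without the block, with 1 and 2 at an unadjusted p under 0.05 in the deprived neocortex and 0 and 2 in the recovery hippocampal formation, near the shares of 5.74% and 7.32% over all probe sets with the block.

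Synaptic partners and targets of the Arc protein were measured for 30 of 32 listed. Of these, 18 were above and 12 below control in the deprived neocortex (median 0.01), and the same counts were found in the recovery hippocampal formation (median 0.02). Gria1, an AMPA receptor subunit, had differences of 0.25 and 0.16 in these groups, with -0.13 in set 1 and 0.62 in set 2 of the neocortex. Dlg4, the PSD-95 scaffold, had 0.21 and -0.08, and its probe sets differed in sign in the neocortex (0.38, 0.21 and -0.17). The endophilin genes Sh3gl1 and Sh3gl3 had -0.05 and -0.13 in the deprived neocortex, and the dynamin gene Dnm2 had 0.00. Camk2a had 0.26 there by its brightest probe set (0.51 in set 1 and 0.01 in set 2), and 0.14, -0.0 and 0.07 by its others. Camk2b, the beta form that holds Arc at inactive synapses, had -0.04 by its brighter probe set and 0.1 by the other. Rnf216, a ubiquitin ligase for Arc, had 0.06. Limma called 0 of 30 in each comparison with and without the block, with 0 and 2 at an unadjusted p under 0.05 in the deprived neocortex and 0 and 1 in the recovery hippocampal formation, near or under the shares of 5.74% and 7.32% over all probe sets with the block.

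Genes were also ranked by their likeness to Arc over the 12 pools, which share rats between structures, so the correlations are descriptions. Over the log2 signals as they are, the highest Pearson r among named genes were those of Foxn3 (0.817), Fzd3 (0.816), Bcl2l1 (0.808), Khk (0.804), Tinf2 (0.800) and Kcnk13 (0.793), and 1% of probe sets had an r over 0.608. After the mean of each structure and set was subtracted, which leaves the differences between states, the highest were those of Ncan (0.954), Tmem88 (0.953), Ece1 (0.942), Homer3 (0.920), Sybu (0.910) and Lrrc37a (0.908), and 1% had an r over 0.763. The differences of these 12 genes were smaller than those of Arc in deprived minus control of the neocortex and recovery minus control of the hippocampal formation. Ncan, a proteoglycan of the brain matrix, was at 0.37 in the deprived neocortex and 0.27 in the recovery hippocampal formation against control. Homer3, a scaffold of the family of Homer1, was at 0.26 and 0.22, and Ece1, an endothelin-converting enzyme, at 0.27 and 0.29. Among the activity-regulated genes the highest values after subtraction were those of Dusp6 (0.871), Gadd45b (0.836) and Nr4a1 (0.774).

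The joint pattern of Arc, with deprived neocortical pools above all control and recovery pools and recovery hippocampal pools above all control and deprived pools, was shared by 57 of 18625 probe sets (0.306%). They were counted after the pattern of Arc was seen. The neocortical part alone was found for 4.57% of probe sets and the hippocampal part alone for 4.47%. Egr1, Nr4a1, Homer3 and the dim probe set of Srf were among the 57, while the brighter Srf probe set was not. The others include genes on none of the lists used here, such as Vhl, Ndufb8 and Mavs, and probe sets without a symbol.

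Targets of stress hormones were higher beside Arc in the deprived neocortex, though 1 of them passed the test and only with the block. All 17 measured glucocorticoid-responsive genes were above control in deprived neocortex (median 0.25), beside 48.0% of all genes. The summed signal of the 17 was 3201 to 3443 in control pools, 4190 to 4401 in deprived and 3503 to 3559 in recovery pools. They were above control in the deprived hippocampal formation too, again 17 of 17 (median 0.23, beside 48.9% of all genes), where Arc was at -0.06. Their sums there were 3504 to 3614 in control, 4331 to 4680 in deprived and 3989 to 4157 in recovery pools. At an unadjusted limma p under 0.05, deprived minus control had 3 of the 17 in the neocortex without the block and 10 with it. In the hippocampal formation it had 3 and 8. Over all probe sets the shares were 1.11% and 5.74% in the neocortex, and 1.1% and 5.94% in the hippocampal formation. Gpd1, a glycerol phosphate dehydrogenase induced by glucocorticoids, was at 0.98 in the deprived neocortex (limma adjusted p = 0.945, and 0.00826 with the block) and at 0.74 in the deprived hippocampal formation. Their part in the differences of Arc was not tested.

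In the check of the dissections by limma, 9 of 11 hippocampal neuron markers were higher and 1 lower in the hippocampal formation, and 7 of 14 neocortical markers were lower and 2 higher, where 19.9% of all probe sets were called in either direction (43.0% with the block). In bulk tissue fewer neurons with the transcript and less transcript per neuron cannot be told apart. The 9 excitatory neuron markers summed to 4047 to 4357 in control, 4200 to 4284 in deprived and 4112 to 4249 in recovery neocortex, and to 4906 to 6068, 5120 to 5740 and 5183 to 5584 in the hippocampal formation. The 12 striatal neuron markers, of a region that also expresses Arc, summed to 2396 to 3060, 2716 to 2827 and 2647 to 2748 in the same neocortical order. Both lists overlapped between control and deprived neocortex. The 3 red cell genes measured were lower in recovery pools of both structures, at 816 to 1054 against 1678 to 2206 in control neocortex and at 985 to 991 against 1510 to 2922 in control hippocampal formation. The summed signal of the 3 choroid plexus markers above the filter was lower in recovery than in control hippocampal pools, at 730 to 1667 against 1797 to 3489. It overlapped that of the deprived hippocampal pools (878 to 5724). In recovery neocortex all 3 markers were above control (median 0.63). Of 8 meningeal and fibroblast markers 7 were below control in recovery hippocampal formation (median -0.28, with the collagen gene Col1a1 at -1.32), and their sums were 2090 to 2904 against 2495 to 3065. The 8 endothelial markers summed to 975 to 984 there, against 1054 to 1099 in control and 1015 to 1036 in deprived pools. Limma called none of the red cell, choroid plexus, meningeal or endothelial markers between states with or without the block. At an unadjusted p under 0.05 in recovery against control of the hippocampal formation there were 3 of 3, 0 of 3, 2 of 8 and 1 of 8 without it. With the block there were 3, 2, 2 and 1, where all probe sets gave 1.51% without it and 7.32% with it. All 3 red cell genes were at that level in the recovery neocortex against control too, without and with the block, beside 1.12% and 5.79% of all probe sets. The ratio of the 3' to the 5' actin control probe sets, which reads RNA integrity, was 2.33 to 2.52 in hippocampal pools and 2.35 to 3.18 in neocortical pools, with recovery neocortex at 3.18 and 2.83. Their part in the hippocampal difference of Arc was not tested.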

How the data were processed

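The deposited values are probe set intensities on a linear scale from biotin-labelled Affymetrix arrays, made with MAS5 per the submitters' processing notes. Version, detection calls and genome build are not given in the sources used here. The mean of each array trimmed by 2% at each end was 100.03, which places all arrays at the same scale. Signals under 1 were set to 1, log2 was taken, and the arrays of a pool were averaged. The 57 control probe sets and the lowest 40% by mean log2 value (under 4.3, a signal of 19.7) were left out. Of all probe sets 20832 had 1 symbol, 436 several and 9831 none; a gene with several kept probe sets was given by the brightest.

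Limma 3.58.1 in R 4.3.3 (lmFit, eBayes with trend) was fitted to all 12 pools as a means model of 6 groups, and to the 6 within-rat differences for the structures, with Benjamini-Hochberg adjustment over 18625 probe sets. The code was tested on simulated data with planted changes, less spread between pools than in the real data and no effect of the set. That test checks the code and not the power of the fits to the real pools. The p-values measure the spread between pools of 6 rats. The number of arrays limits the precision. Same-numbered pools deviated together, with correlations of 0.539 to 0.682 within and 0.182 to 0.387 between structures. As the design text ties each number to 1 set of animals per state, and these correlations all exceed 0.1, values with the replicate block stand beside those without it where a call changes. Members, lists, tests and alternatives were chosen with earlier results of these data known. Named list genes were fixed by role; the 6 genes most like Arc were taken by highest correlation, 1 probe set per gene. Second probe sets of Dlg4, Homer1, Srf, Mef2c, Crtc1, Camk2a, Camk2b and Bdnf, Col1a1, and the genes sharing the joint pattern, were singled out after their values were seen. Sequence of Arc is not used here.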

Additional observations from a re-analysis of the deposited data

Results flagged for a closer look

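Recovery minus deprived for Arc ran in opposite directions in the structures: -0.91 in the neocortex, below 0 in both sets, and 0.54 in the hippocampal formation, above 0 in both sets. The difference between structures was not tested. Such opposite signs in all sets were found for 7.27% of the 18625 probe sets (1354), so the sign pattern alone is not rare. Among 17 named activity-regulated genes 7 had it: Fos (-0.47 and 0.50), Junb (-0.23 and 0.25), Egr1 (-0.10 and 0.49), Nr4a1 (-0.26 and 0.50), Homer1 by its brightest probe set (-0.12 and 0.06), Dusp6 by its brightest of 3 probe sets (-0.23 and 0.13) and Gadd45b (-0.73 and 0.38), neocortex first. In deprived minus control 3 genes were above 0 in both neocortical and below 0 in both hippocampal sets, namely Egr1 (0.33 and -0.13), Egr2 (0.78 and -0.16) and Bdnf by its brightest probe set (0.22 and -0.05), while its other probe set gave 0.69 and 0.33. In recovery minus control Junb had -0.10 in the neocortex and 0.44 in the hippocampal formation. The share of all probe sets with opposite signs was not counted for deprived minus control or recovery minus control. The counts in these comparisons are therefore not set against a background. None of these differences between structures was tested.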

How the results depend on the processing

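Arc in the neocortex kept its direction for deprived minus control and for recovery minus deprived under a floor of 16, no filter on dim probe sets, quantile normalization, 1 array per pool, all arrays with the pool as a random block, the replicate block and the fit on 1 structure. Leaving out 1 pool gave 0.73 to 1.14 for deprived minus control, -1.15 to -0.66 for recovery minus deprived and -0.21 to 0.27 for recovery minus control. In the hippocampal formation the same gave 0.38 to 0.59 for recovery minus control, 0.53 to 0.56 for recovery minus deprived and -0.16 to 0.0521 for deprived minus control, which was 0.0521 without set 1 of the control rats and 0.12 with 1 array per pool; the cause was not tested. The structure difference ranged from -0.0699 to 0.12 without 1 pool of rats, with -0.0699, -0.039 and -0.0503 without set 1 of the control, deprived and recovery rats. Calls over all probe sets were 0 in the comparisons of states except for 2 with the replicate block or with all arrays in deprived neocortex, and 1 with the replicate block for recovery minus deprived in the neocortex. For the structures they were 3700, 8006 with the replicate block, and 1625 to 4507 without 1 pool of rats, namely 2171 without set 1 of the control rats, 1625 and 2338 without set 1 and set 2 of the deprived rats and 1790 without set 1 of the recovery rats, where fewer pools enter. Among the genes of the lists, Gpd1 was the only one whose call in a comparison of states changed with the replicate block. Spearman correlation kept 2 of the 6 genes most like Arc, and 1 of 6 after subtraction of means. With 2 pools per group, smaller differences in Arc were not detectable.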
